A study of Homo sapiens with 8 samples.

Results

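The 50 genes described here carry out mitosis and build the spindle. They were taken by symbol from a list of mitotic kinases, checkpoint proteins, kinetochore subunits, kinesins and spindle proteins, and the rule uses no measured value. All 50 were among the 60675 genes listed for each library, and all 50 passed the filter on low counts that left 16661 genes to test. They fell into 9 roles: 7 belong to the cyclin-kinase switch and the kinases of mitotic entry, 6 to the aurora kinases and the chromosomal passenger complex, 5 to the spindle checkpoint, 6 to the anaphase machinery, 7 to the centromere and outer kinetochore, 9 are kinesins, 7 are spindle and midzone proteins, 2 are markers of chromosome structure and proliferation and 1 is a transcription factor.

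In dividing cells, CDK1 bound to a B-type cyclin drives entry into mitosis, and the aurora and polo kinases then help to build the spindle. Kinetochores attach chromosomes to microtubules, and the spindle checkpoint holds back the anaphase-promoting complex until every chromosome is attached. Most transcripts of this machinery are low early in the cell cycle and rise towards mitosis, because the DREAM complex holds their promoters silent in resting cells and B-MYB and FOXM1 activate them later.

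The cells were Panc10.05, an established human pancreatic cancer line, and a derivative that had become resistant during culture in rising doses of indisulam, a sulfonamide that glues RBM39, a splicing factor, to the ubiquitin ligase receptor DCAF15 so that it is destroyed. RNA sequencing covered 8 libraries in 4 groups of 2. Parental untreated cells had no drug, and parental indisulam cells had 2 µM of it over 18 h. Resistant indisulam cells grew in 2 µM of the drug throughout, and resistant untreated cells, which carry the same history, had been off it for 1 week. In the study the paired libraries of each group count as technical replicates, so p-values measure the spread between these libraries only. Growth and treatment notes in the labels name A549 cells, whereas the sample titles say Panc10.05, as does the field for the line, and these were followed. Nothing in the sources used here says whether the resistant line came from 1 clone.

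The libraries held 65266253 to 108002436 reads in genes. CPM is counts relative to library size, by library totals alone for the cell type markers of this paragraph and scaled with edgeR's TMM elsewhere. Epithelial markers of the pancreatic duct (EPCAM, KRT7, KRT8, KRT18, KRT19 and CDH1) were all high, from 161.8 to 4960 CPM. Their sum was 6229 to 6536 CPM in the parental and 10750 to 12530 CPM in the resistant libraries. PTPRC, CD3E and DCN, which mark leukocytes and fibroblasts, had 0 reads. Not all such markers were at 0: leukocyte markers summed to 0.07455 to 0.38 CPM and endothelial markers to 0.174 to 0.35 CPM over the libraries. The sum of 4 fibroblast markers was 4.09 and 4.14 CPM in resistant indisulam cells and 1.34 to 1.87 CPM elsewhere, nearly all of it COL1A1, and its part in the results was not tested. The transcript of RBM39, whose protein is the drug's target, rose from 332 and 337 CPM to 716 and 731 CPM with treatment of the parental line, and stood at 299 and 311 CPM off and 577 and 591 CPM on the drug in the resistant line.

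Promoters of mitotic genes often carry the CHR element, which binds the MuvB core of DREAM, and CCAAT boxes, which bind NF-Y. RefSeq promoters on GRCh38.p14, from 250 bases before to 50 after the first listed start, were found for 43 of the 50 genes. AURKA, BIRC5, TPX2, BUB3, TTK, UBE2C and FOXM1 had no entry. The words TTTGAA or TTCGAA of the CHR, on either strand, stood in 32 of the 43 promoters (74.4%) and in 16.6% of all 27305 promoters of this length, or 11.2% of the 11146 of tested genes. Within 50 bases of the start on either side, 27 of 43 (62.8%) held one, beside 5.05% of all promoters and 3.21% of those of tested genes. CCAAT, on either strand, stood in 35 of 43 (81.4%), in 35.7% of all promoters and in 36.8% of those of tested genes. Both words together stood in 27 of 43 (62.8%), beside 6.58% and 4.78%. The E2F words TTCCCGCC, TTTGGCGC and TTTCCCGC stood in 4 of 43 (9.3%), beside 4.61% of all promoters and 7.35% of those of tested genes. The 6 promoters that follow, as the 250 bases before the RefSeq start, are shown because they span the responses described below. CDK1 (chr10:60778081-60778330, plus strand), CCNB2 (chr15:59104896-59105145, plus) and MKI67 (chr10:128126424-128126673, minus) were higher on the drug than off it in both lines. In parental cells the calls of CDK1 and MKI67, and that of TOP2A, did not hold in every alternative, as given below. TOP2A (chr17:40417897-40418146, minus) and ESPL1 (chr12:53268049-53268298, plus) were lower on the drug in parental cells and higher on it in resistant cells. CCNB1 (chr5:69166900-69167149, plus) is the B-type cyclin at the centre of the switch. Each is printed 5′ to 3′ in the gene's direction with CHR and CCAAT words, or their reverse complements, in capitals.
CDK1: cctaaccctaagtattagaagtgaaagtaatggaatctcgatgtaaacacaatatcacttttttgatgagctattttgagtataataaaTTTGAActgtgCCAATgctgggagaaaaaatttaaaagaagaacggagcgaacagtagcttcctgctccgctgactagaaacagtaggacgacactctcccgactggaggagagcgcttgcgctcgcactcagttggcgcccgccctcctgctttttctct
CCNB2: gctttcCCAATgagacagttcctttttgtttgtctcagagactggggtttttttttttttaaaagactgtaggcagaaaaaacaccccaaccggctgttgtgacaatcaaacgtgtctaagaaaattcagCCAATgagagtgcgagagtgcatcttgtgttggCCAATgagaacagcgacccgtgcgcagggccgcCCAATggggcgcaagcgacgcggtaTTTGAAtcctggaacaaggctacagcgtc
MKI67: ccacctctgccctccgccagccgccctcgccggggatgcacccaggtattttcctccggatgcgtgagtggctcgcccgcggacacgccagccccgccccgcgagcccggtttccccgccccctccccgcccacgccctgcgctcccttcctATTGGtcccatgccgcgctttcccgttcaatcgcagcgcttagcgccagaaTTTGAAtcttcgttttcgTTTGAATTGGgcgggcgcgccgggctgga
TOP2A: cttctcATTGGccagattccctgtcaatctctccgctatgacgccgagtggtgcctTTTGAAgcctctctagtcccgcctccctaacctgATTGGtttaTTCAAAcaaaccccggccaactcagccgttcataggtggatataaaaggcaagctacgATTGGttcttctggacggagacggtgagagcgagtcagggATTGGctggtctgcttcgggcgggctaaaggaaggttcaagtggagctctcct
ESPL1: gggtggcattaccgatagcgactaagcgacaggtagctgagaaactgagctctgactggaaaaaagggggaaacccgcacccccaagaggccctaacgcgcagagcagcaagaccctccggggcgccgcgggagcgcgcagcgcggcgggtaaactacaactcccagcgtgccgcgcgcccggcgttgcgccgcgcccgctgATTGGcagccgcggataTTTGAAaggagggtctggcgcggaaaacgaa
CCNB1: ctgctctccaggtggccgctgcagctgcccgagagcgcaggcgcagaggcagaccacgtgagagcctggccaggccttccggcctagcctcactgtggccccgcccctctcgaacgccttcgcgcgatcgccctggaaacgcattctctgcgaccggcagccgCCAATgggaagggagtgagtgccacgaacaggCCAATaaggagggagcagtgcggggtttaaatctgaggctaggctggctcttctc
CCNB2 held 1 CHR word 29 bases before the start behind 4 CCAAT boxes. MKI67 held 2 CHR words, at 47 and 29 bases before the start, and its last CCAAT box shares an A with the second of them. CDK1 held 1 of each, at 161 and 150 bases, and so did ESPL1, at 31 and 48 bases. TOP2A held 2 CHR words, at 194 and 151 bases, and 4 CCAAT boxes from 244 to 53 bases before the start. CCNB1 held 2 CCAAT boxes and no CHR word in this window. A match of letters is a description of the window and not a binding site.

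Summed over the 50 genes, the 4 groups were clearly apart. Their CPM summed to 9508 and 9493 in untreated parental cells and to 11280 and 12110 after treatment. In the resistant line the sums were 6490 and 6307 CPM off the drug and 8909 and 9080 CPM on it. Parental cells on the drug were highest and resistant cells off it lowest, with no overlap between groups. The share of all reads in genes went the same way, from 0.628% and 0.644% in resistant untreated to 1.10% and 1.17% in parental indisulam cells. In bulk RNA, more cells in mitosis and more of these transcripts per cell cannot be told apart.

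**Figure D1:**
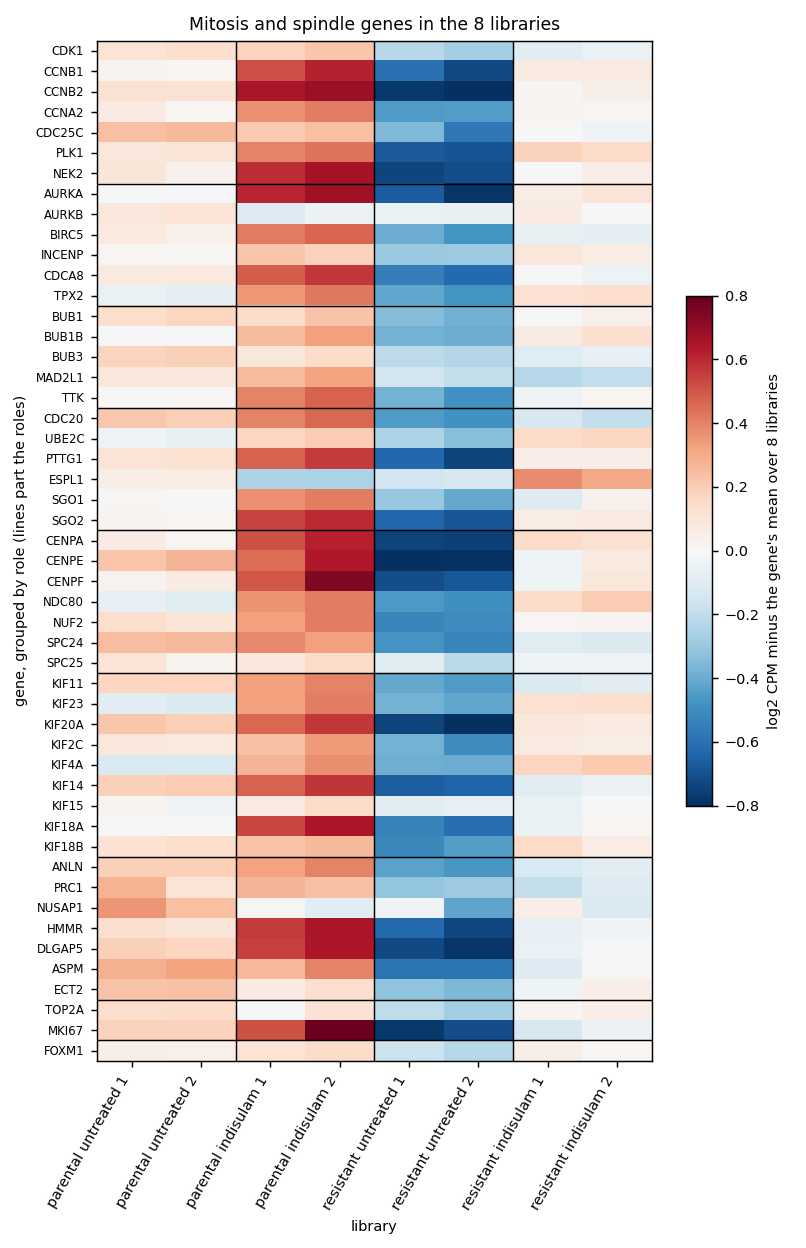
Rows are the 50 genes grouped by role, columns are the 8 libraries, and the colour is the log2 CPM of a gene minus its own mean over the libraries, from -0.8 (blue) to 0.8 (red). The parental indisulam libraries are red and the resistant untreated libraries blue for most genes, with ESPL1 and AURKB standing apart.

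Single genes followed that order closely. For 46 of the 50 (92%), both resistant untreated libraries lay below the other 6, beside 15.1% of all genes tested. AURKB, MAD2L1, ESPL1 and NUSAP1 were the exceptions. For 39 (78%), both parental indisulam libraries lay above the other 6, beside 24.7% of all genes. Both held for 38 (76%), beside 8.31%. Resistant cells kept on the drug lay above resistant untreated and below parental indisulam cells, in both libraries of each, for 45 of the 50 (90%), beside 12.9%. Against parental untreated cells they were mixed: both resistant indisulam libraries were below both parental untreated ones for 28 genes (56%, beside 42.8% of all genes) and above for 13 (26%, beside 40.5%).

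The levels of the genes differed widely. Per kilobase of merged exons, in parental untreated cells, CCNB1 was highest at 219.5 CPM, followed by UBE2C at 170.3, TPX2 at 152, ANLN at 119.8 and CDC20 at 119.5 CPM. UBE2C is the ubiquitin-conjugating enzyme that starts chains for the anaphase-promoting complex, and ANLN is anillin, a scaffold of the cytokinetic ring. Among genes with firm counts SGO1 was lowest, at 7.06 CPM, just under the kinesin KIF15 at 8.51 CPM. PRC1 and NUSAP1 were lower by far, at 0.355 and 0.127 CPM per kilobase, and both are overlapped by genes that hold most reads of the pair, as given further on.

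The cyclin-kinase switch was read in 7 genes. CDK1, the kinase itself, was at 243 and 247 CPM in untreated parental cells, 255 and 262 after indisulam, 193 and 187 in resistant cells off the drug and 212 and 217 on it. Its 4 groups did not overlap, and the whole span was narrow. CCNB1, the main mitotic cyclin (ENSG00000134057, chr5:69167135-69178245, plus strand, by GENCODE 44 on GRCh38), was at 536 and 532 CPM without and 755 and 807 with the drug in the parental line, and 349 and 320.1 without and 552 and 555 with it in the resistant line. CCNB1 moved much more than its kinase, with parental indisulam cells at the top. CCNB2, a second B-type cyclin, was at 136 and 135 CPM in the parental line untreated and 196 and 200.4 treated, against 72.8 and 68.2 in the resistant line off drug and 126 and 128 kept on it. PLK1, the polo kinase that promotes entry and spindle assembly, was at 119 and 120.4 CPM in untreated parental cells, 147 and 151 after indisulam, 70.4 and 69.5 in resistant cells off the drug and 127 and 124 on it. In both genes resistant untreated libraries were far below the rest, and PLK1 in resistant indisulam cells exceeded parental untreated cells. CCNA2, the cyclin of S phase and early mitosis, spanned 88.8 to 163 CPM over the libraries. NEK2, a kinase of centrosome separation, spanned 38 to 100.1 CPM and CDC25C, a phosphatase that activates CDK1, 18.2 to 32.5 CPM.

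AURKA, the aurora kinase of centrosomes and spindle poles, was at 267 and 265 CPM without and 407 and 428 with the drug in the parental line, and 168 and 156 without and 278 and 287 with it in the resistant line. Parental cells on the drug stood well above the other groups, and resistant cells on the drug were slightly above parental untreated ones. Its activator TPX2 was at 551 and 545 CPM in the parental line untreated and 728 and 767 treated, against 429 and 411 in the resistant line off drug and 619.5 and 626 kept on it. AURKB, the catalytic subunit of the chromosomal passenger complex that corrects wrong attachments, was at 84.9 and 86.2 CPM in untreated parental cells, 74.3 and 77.2 after indisulam, 76.8 and 76.7 in resistant cells off the drug and 83.3 and 79.7 on it. AURKB was highest in parental untreated cells, and parental indisulam and resistant untreated libraries overlapped. Its partners BIRC5 (survivin, 182 to 351 CPM), CDCA8 (borealin, 74.1 to 168 CPM) and INCENP (99 to 142 CPM) were lowest in resistant untreated and highest in parental indisulam cells.

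Among the 5 checkpoint genes, BUB1 was at 230.3 and 235 CPM without and 231 and 244 with the drug in the parental line, and 164 and 159.6 without and 208 and 215 with it in the resistant line. BUB1 is a kinase that recruits checkpoint proteins to kinetochores, and its 2 parental groups overlapped. MAD2L1, whose protein binds and holds CDC20, was at 82.2 and 82.3 CPM in the parental line untreated and 92.3 and 96.8 treated, against 70 and 67.9 in the resistant line off drug and 66.2 and 67.4 kept on it. Both resistant groups lay below both parental groups for MAD2L1, and resistant libraries on and off the drug were close together. BUB1B (BUBR1) ranged from 70.1 to 116 CPM, TTK (the MPS1 kinase) from 95.5 to 186 CPM and BUB3 from 241 to 325 CPM.

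Of the 6 anaphase genes, CDC20, the activator of the anaphase-promoting complex, was at 242 and 238 CPM in untreated parental cells, 274 and 287 after indisulam, 152 and 149 in resistant cells off the drug and 191 and 182 on it. The 4 groups kept the usual order, with resistant indisulam cells below parental untreated ones. PTTG1, securin, which inhibits separase, was at 129.9 and 131 CPM without and 167 and 178 with the drug in the parental line, and 78.1 and 72.1 without and 125 and 125 with it in the resistant line. ESPL1, separase, the protease that cuts cohesin (ENSG00000135476, chr12:53268299-53293638, plus strand), was at 119 and 119.5 CPM in the parental line untreated and 96.6 and 96.3 treated, against 103 and 105 in the resistant line off drug and 149 and 142 kept on it. ESPL1 turned the common order round: parental indisulam libraries were lowest of all and resistant indisulam libraries highest. The cohesin protectors SGO1 and SGO2 ranged from 19.9 to 35.1 and from 44.9 to 109 CPM, and UBE2C from 178 to 260.3 CPM.

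In the centromere and outer kinetochore, CENPE, a kinesin that carries chromosomes to the spindle equator, was at 153 and 158 CPM in untreated parental cells, 178 and 203 after indisulam, 73.2 and 75.5 in resistant cells off the drug and 128 and 138 on it. CENPE had the deepest low in resistant untreated cells, and its parental indisulam libraries differed from each other more than those of most genes. CENPA, the histone variant that marks the centromere, was at 50.6 and 49 CPM without and 68.8 and 74.7 with the drug in the parental line, and 29 and 28.9 without and 53.8 and 52.7 with it in the resistant line. CENPF, a large kinetochore protein, was at 358 and 368 CPM in the parental line untreated and 495 and 588 treated, against 215 and 220.1 in the resistant line off drug and 343 and 375 kept on it. The NDC80 complex, which grips microtubules, moved less evenly: NDC80 ranged from 71.5 to 134 CPM, NUF2 from 42.8 to 81.8, SPC24 from 54.5 to 103 and SPC25 from 32.3 to 41.8 CPM.

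Among the 9 kinesins, KIF11, the motor that pushes spindle poles apart, was at 225 and 226 CPM in untreated parental cells, 251 and 263 after indisulam, 150.5 and 146 in resistant cells off the drug and 185 and 189 on it. KIF20A, a motor of the midzone and cytokinesis, was at 148 and 145 CPM without and 175 and 188 with the drug in the parental line, and 76.2 and 70.2 without and 135 and 133 with it in the resistant line. Its resistant untreated libraries stood far below the other 6, which ran from parental indisulam at the top to resistant indisulam. KIF18A, which dampens chromosome oscillation, was at 76.1 and 76.2 CPM in the parental line untreated and 110.2 and 119 treated, against 52.4 and 49.7 in the resistant line off drug and 73.2 and 76.8 kept on it. KIF15, which shares the pole-separating work of KIF11, was nearly flat, at 42.3 to 50.1 CPM over all libraries. KIF23 (151 to 267 CPM), KIF4A (138 to 235), KIF14 (61.2 to 144), KIF2C (81.1 to 146) and KIF18B (47.1 to 80.8 CPM) were lowest in resistant untreated and highest in parental indisulam cells.

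MKI67, the antigen Ki-67 that coats mitotic chromosomes (ENSG00000148773, chr10:128096659-128126423, minus strand), was at 837 and 835 CPM in untreated parental cells, 1047 and 1269 after indisulam, 431 and 449.5 in resistant cells off the drug and 672 and 711 on it. The 2 parental indisulam libraries differed from each other by more than either parental untreated library differed from the other. TOP2A, the topoisomerase that untangles sister chromatids, was at 488 and 491 CPM without and 443 and 480.1 with the drug in the parental line, and 386 and 366 without and 450 and 460.1 with it in the resistant line. Parental indisulam, resistant indisulam and parental untreated cells lay close together for TOP2A, with only the resistant untreated group clearly apart. FOXM1, a transcription factor that activates genes of late cell cycle, was at 357 and 356 CPM in the parental line untreated and 374 and 383 treated, against 307 and 296 in the resistant line off drug and 357 and 349 kept on it. Its range was the narrowest of these 3 genes in ratio. Of the spindle proteins, ANLN ranged from 457 to 828 CPM, DLGAP5 from 98.7 to 265, HMMR from 57.5 to 149.6, ASPM from 123 to 243 and ECT2, which activates RhoA at the cleavage furrow, from 147 to 222 CPM.

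**Figure D2:**
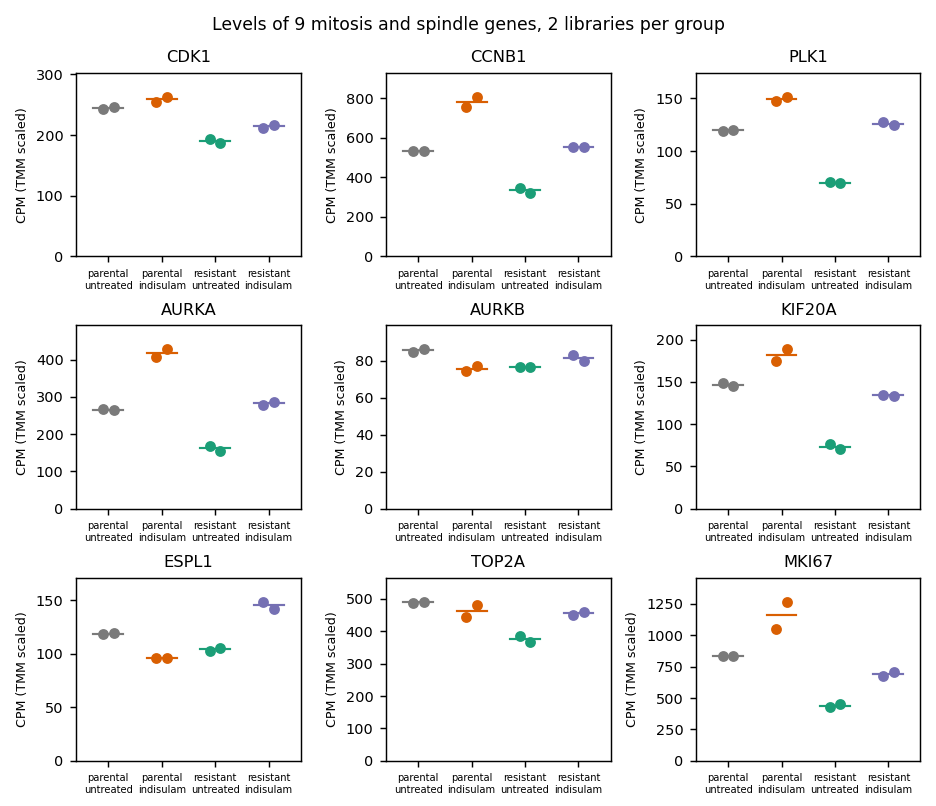
Each panel shows 1 gene, with the CPM of each library as a point (vertical axis, from 0) and the group mean as a line for the 4 groups. CCNB1, AURKA and MKI67 are highest in parental indisulam cells, AURKB is highest in parental untreated cells, and ESPL1 is highest in resistant indisulam cells.

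Most of these genes rose in parental cells after 18 h of indisulam. Of the 50 genes, 39 rose and 4 fell, while 58.2% of all genes tested were called (31.6% higher and 26.6% lower), by edgeR's quasi-likelihood test with Benjamini-Hochberg adjusted p under 0.05. The median log2 fold change of the 50 was 0.30, beside 0.014 over all genes. The changes were small, since 0 of the 50 passed 1 log2 unit in size, beside 7.68% of all genes tested, and 8 passed 0.5. The 5 largest rises were those of AURKA (0.65 ± 0.034 (SE), adjusted p = 5.43e-12), KIF18A (0.59 ± 0.036 (SE), adjusted p = 2.84e-11), CENPF (0.58 ± 0.095 (SE), adjusted p = 0.00583), NEK2 (0.56 ± 0.034 (SE), adjusted p = 3.53e-12) and SGO2 (0.55 ± 0.031 (SE), adjusted p = 1.02e-12). CCNB1 (log2 fold change 0.55 ± 0.037 (SE), adjusted p = 3.22e-09) and CCNB2 (0.55) were just behind them. The 4 that fell were ESPL1 (-0.30 ± 0.030 (SE), adjusted p = 1.19e-08), AURKB (-0.18 ± 0.032 (SE), adjusted p = 4.99e-05), ECT2 (-0.13 ± 0.031 (SE), adjusted p = 0.0013) and TOP2A (-0.086 ± 0.034 (SE), adjusted p = 0.0386).

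By role, all 9 kinesins rose in parental cells, from 0.11 for both KIF15 and KIF18B through KIF11 (0.19), KIF2C (0.20), KIF20A (0.31), KIF14 (0.32), KIF4A (0.44) and KIF23 (0.47) to KIF18A. Of the 7 genes of the switch 6 rose, PLK1 by 0.32, CCNA2 by 0.35 and CDK1 by 0.081, and CDC25C was at -0.024 and not called. The aurora group had 5 of 6 higher, TPX2 and CDCA8 both at 0.45, BIRC5 at 0.38 and INCENP at 0.19. The checkpoint had 3 of 5 higher (TTK 0.43, BUB1B 0.30 and MAD2L1 0.20), with BUB1 at 0.030 and BUB3 at -0.065 not called. Among anaphase genes 5 of 6 rose, PTTG1 by 0.40, SGO1 by 0.38, UBE2C by 0.23 and CDC20 by 0.22. In the kinetochore 6 of 7 rose, CENPA by 0.53, NDC80 by 0.47, CENPE by 0.30, NUF2 by 0.25 and SPC24 by 0.103, and SPC25 at 0.051 was not called. The spindle proteins split, since HMMR (0.49), DLGAP5 (0.42) and ANLN (0.17) rose, whereas ASPM (0.028), PRC1 (0.059) and NUSAP1 (-0.34) were not called. MKI67 rose by 0.47 (SE 0.0998, adjusted p = 0.0147) and FOXM1 by 0.087.

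Some calls in parental cells were lost when 1 library was left out. CDK1 was not called when any of the 8 libraries was left out (0.040 to 0.093), and FOXM1 was not called without parental untreated replicate 1 (0.090), parental untreated replicate 2 (0.084), parental indisulam replicate 1 (0.084), parental indisulam replicate 2 (0.049), resistant indisulam replicate 1 (0.065) or resistant indisulam replicate 2 (0.065). The call of TOP2A was lost without parental untreated replicate 1 (-0.090), parental untreated replicate 2 (-0.081) or parental indisulam replicate 1 (-0.048), that of MKI67 without parental untreated replicate 1 (0.47) or parental untreated replicate 2 (0.47) and that of KIF15 without parental untreated replicate 2 (0.091) or parental indisulam replicate 2 (0.053). The same held for KIF18B without parental untreated replicate 1 (0.102) or parental indisulam replicate 2 (0.078) and for SPC24 without parental untreated replicate 1 (0.096) or parental indisulam replicate 1 (0.055). With an offset for GC content and length, CDK1 turned to -0.012 and KIF15 to -0.014. That offset also ended the calls of KIF11 (0.044), MAD2L1 (0.047), ANLN (0.030) and CENPE (0.11), and 7 genes were lower. BUB3 was called lower with the offset (-0.22) and without parental indisulam replicate 2 (-0.11), resistant untreated replicate 1 (-0.085), resistant untreated replicate 2 (-0.085), resistant indisulam replicate 1 (-0.086) or resistant indisulam replicate 2 (-0.086).

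Resistant cells on the drug, compared with the same line after 1 week off it, had more of nearly all these transcripts. For this line, a gene that rose was higher on the drug than after that week, since treated cells were kept on it throughout. Of the 50 genes, 46 rose and 0 fell, while 50.7% of all genes were called (24.9% higher and 25.8% lower). The count of 0 that fell, from edgeR, was also 0 at an unadjusted p under 0.05 and with DESeq2. The median log2 fold change was 0.50, beside 0.0093 over all genes, and 25 of the 50 passed 0.5. In size 0 of the 50 passed 1 log2 unit, beside 6.06% of all genes tested. The 5 largest rises were those of CENPA (0.88 ± 0.041 (SE), adjusted p = 1.61e-14), KIF20A (0.87 ± 0.040 (SE), adjusted p = 1.28e-11), CCNB2 (0.85 ± 0.032 (SE), adjusted p = 4.52e-16), PLK1 (0.85 ± 0.030 (SE), adjusted p = 1.11e-16) and CENPE (0.84 ± 0.073 (SE), adjusted p = 0.00012), which correspond to 1.79-fold to 1.84-fold. AURKA rose by 0.80, CCNB1 by 0.73, MKI67 by 0.65, KIF11 by 0.33, CDC20 by 0.31, TOP2A by 0.28, FOXM1 by 0.23 and CDK1 by 0.18.

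All 7 genes of the switch, all 6 of the aurora group, all 6 anaphase genes and all 7 kinetochore genes rose in resistant cells. The kinesins had 8 of 9 higher, the checkpoint 4 of 5 and the spindle proteins 5 of 7. The 4 not called were MAD2L1 (-0.045), KIF15 (0.055), PRC1 (0.16) and NUSAP1 (0.16). Separase, which had fallen in parental cells, rose here (ESPL1 0.48 ± 0.030 (SE), adjusted p = 5.6e-12), and so did ECT2 (0.35) and ASPM (0.54). The rise of AURKB (0.086 ± 0.032 (SE), adjusted p = 0.0302) was the smallest called, and it was lost without parental untreated replicate 1 (0.085), parental untreated replicate 2 (0.085), resistant untreated replicate 1 (0.090), resistant untreated replicate 2 (0.078) or resistant indisulam replicate 1 (0.050). The call of SPC25 (0.12) was lost without resistant untreated replicate 2 (0.059), resistant indisulam replicate 1 (0.12) or resistant indisulam replicate 2 (0.11).

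Off the drug, the resistant line had far less of these transcripts than the parental line. Its cells had been off the drug for 1 week after culture on it, so line and withdrawal cannot be told apart here. Of the 50 genes 0 rose and 48 fell, while 60.1% of all genes were called (30.3% higher and 29.9% lower). For all 50 both resistant libraries lay below both parental ones, beside 40.9% of all genes. The count of 0 that rose was also 0 at an unadjusted p under 0.05 and with DESeq2. The median log2 fold change was -0.57, beside -0.015 over all genes. The 5 deepest falls were those of CENPE (-1.06 ± 0.072 (SE), adjusted p = 2.17e-05), KIF20A (-1.002 ± 0.040 (SE), adjusted p = 4.42e-13), CCNB2 (-0.94 ± 0.032 (SE), adjusted p = 9.7e-18), DLGAP5 (-0.93 ± 0.034 (SE), adjusted p = 8.65e-17) and MKI67 (-0.93 ± 0.101 (SE), adjusted p = 0.00124). CENPE and KIF20A thus stood at 0.479 and 0.499 of the parental level.

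Every role took part in this fall. The kinetochore genes had the lowest median among roles with more than 1 gene, -0.74, followed by the switch at -0.71, the 2 markers of chromosome structure and proliferation at -0.65 and the spindle proteins at -0.63, and the checkpoint had -0.41. PLK1 was at -0.78, CENPA at -0.78, AURKA at -0.71, CCNB1 and CDC20 both at -0.68, KIF11 at -0.60, TOP2A at -0.38, CDK1 at -0.37 and FOXM1 at -0.24. The smallest falls were AURKB (-0.16), ESPL1 (-0.19) and SPC25 (-0.22). KIF15 (-0.074) and NUSAP1 (-0.50) were not called. Leaving out any 1 of the 8 libraries gave 48 or 49 genes lower, with KIF15 called without resistant indisulam replicate 1 (-0.088) or resistant indisulam replicate 2 (-0.088). The offset for GC content and length ended the call of SPC25 (-0.054).

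On the drug, the resistant line was still lower, but by less. Of the 50 genes 2 were higher and 45 lower, while 69.5% of all genes were called (34.6% higher and 34.9% lower), and the median log2 fold change was -0.39, beside 0.0032 over all genes. The 5 deepest falls were those of MKI67 (-0.74 ± 0.101 (SE), adjusted p = 0.00223), HMMR (-0.65 ± 0.036 (SE), adjusted p = 6.97e-13), CCNB2 (-0.64 ± 0.031 (SE), adjusted p = 6.17e-15), DLGAP5 (-0.63 ± 0.033 (SE), adjusted p = 6.02e-14) and KIF18A (-0.61 ± 0.037 (SE), adjusted p = 3.5e-12). HMMR is a spindle protein that binds microtubules, and DLGAP5 stabilises spindle fibres near chromosomes. The 2 genes that were higher were ESPL1 (0.59 ± 0.030 (SE), adjusted p = 2.34e-14) and AURKB (0.105 ± 0.032 (SE), adjusted p = 0.00595). AURKA was at -0.56, CDC20 at -0.59, CCNB1 at -0.50, KIF11 at -0.46, CENPA at -0.43, CDK1 at -0.27, PLK1 at -0.25 and FOXM1 at -0.099. UBE2C (-0.029), TOP2A (-0.020) and NUSAP1 (0.0004) were not called.

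Several calls in this contrast were weak. Those of INCENP, KIF4A, KIF15, KIF18B, SPC25, ECT2 and FOXM1 were lost with library totals alone. They were also lost with a filter on a mean CPM of at least 1. INCENP was at -0.039 and -0.048 in these 2 alternatives. The call of AURKB was lost without resistant indisulam replicate 1 (0.077), which left 1 gene higher. The call of ECT2 was lost without parental indisulam replicate 2 (-0.034) or resistant indisulam replicate 1 (-0.050), and that of FOXM1 without parental indisulam replicate 2 (-0.057) or resistant indisulam replicate 2 (-0.078). The same held for PRC1 without parental indisulam replicate 1 (-0.36) or resistant indisulam replicate 1 (-0.36), for KIF15 without parental indisulam replicate 2 (-0.068), for KIF4A without parental indisulam replicate 2 (-0.052), for SPC25 without parental indisulam replicate 2 (-0.092) and for KIF18B without resistant indisulam replicate 2 (-0.080). With the offset for GC content and length, TOP2A turned to 0.18, ECT2 to 0.15, SPC25 to 0.0998 and KIF15 to 0.040. The same offset ended the calls of CDK1 (-0.011), AURKB (0.0049), BUB1 (-0.014) and NDC80 (-0.017).

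Both drug responses can be set beside each other because they share no library. Across the 50 genes, the log2 fold changes in the 2 lines had a Pearson r of 0.679 and a Spearman rho of 0.724, given as a description, since genes are not independent and share libraries. Over all 16661 genes r was 0.201. The exposures differed, at 18 h in parental cells and continuous culture against 1 week off the drug in resistant cells, so line and schedule cannot be told apart in what follows. The difference of the responses (resistant minus parental) was higher for 35 genes and lower for 1, while 50.1% of all genes were called (22.7% higher and 27.5% lower), with a median of 0.18 beside 0.010 over all genes.

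The differences were greatest for ESPL1 (0.78 ± 0.043 (SE), adjusted p = 1.68e-12), KIF20A (0.57 ± 0.055 (SE), adjusted p = 3.29e-07), CENPE (0.54 ± 0.099 (SE), adjusted p = 0.00475), PLK1 (0.53 ± 0.041 (SE), adjusted p = 6.75e-10) and ASPM (0.51 ± 0.064 (SE), adjusted p = 3.72e-05). ASPM, a protein of spindle poles, did not pass the test in parental cells and rose in resistant ones. MAD2L1 (-0.24 ± 0.045 (SE), adjusted p = 9.63e-05) was the single gene with a smaller response in resistant cells, and with that offset its difference (-0.048) was not called. CENPA differed by 0.35, TOP2A by 0.36, AURKB by 0.26, CCNB1 by 0.18, AURKA by 0.15, KIF11 by 0.14 and FOXM1 by 0.14. The differences of CDK1 (0.096), CDC20 (0.088) and MKI67 (0.18) were not called, nor were those of BIRC5 (-0.0096), TTK (-0.011) and KIF18A (-0.032), which lay near 0 and turned positive, BIRC5 with library totals alone and the other two with the offset for GC content and length. The call of AURKA was lost without parental untreated replicate 1 (0.14) or resistant untreated replicate 2 (0.11), and that of CCNA2 without parental untreated replicate 1 (0.095) or parental indisulam replicate 1 (0.11). That of KIF4A was lost without parental indisulam replicate 1 (0.11), and that of TPX2 without parental untreated replicate 1 (0.11), parental untreated replicate 2 (0.13), parental indisulam replicate 1 (0.103) or resistant untreated replicate 2 (0.11). HMMR (0.14) was not called without parental untreated replicate 1 (0.12), parental untreated replicate 2 (0.15), parental indisulam replicate 1 (0.11), resistant untreated replicate 2 (0.099) or resistant indisulam replicate 2 (0.14). Other differences were not called with all 8 libraries but were with 1 left out. MKI67 was called without parental indisulam replicate 2 (0.35), CENPF without parental indisulam replicate 2 (0.29) and KIF23 without parental indisulam replicate 2 (0.11). The difference of CDK1 was called without parental indisulam replicate 2 (0.14), resistant untreated replicate 1 (0.14) or resistant indisulam replicate 1 (0.13), and at 0.19 with the offset. That of CDC20 was called without parental indisulam replicate 2 (0.14), resistant untreated replicate 1 (0.13) or resistant indisulam replicate 2 (0.14), that of CDCA8 without parental indisulam replicate 2 (0.17), resistant untreated replicate 1 (0.17) or resistant indisulam replicate 2 (0.15) and that of SPC25 without resistant untreated replicate 1 (0.16).

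**Figure D3:**
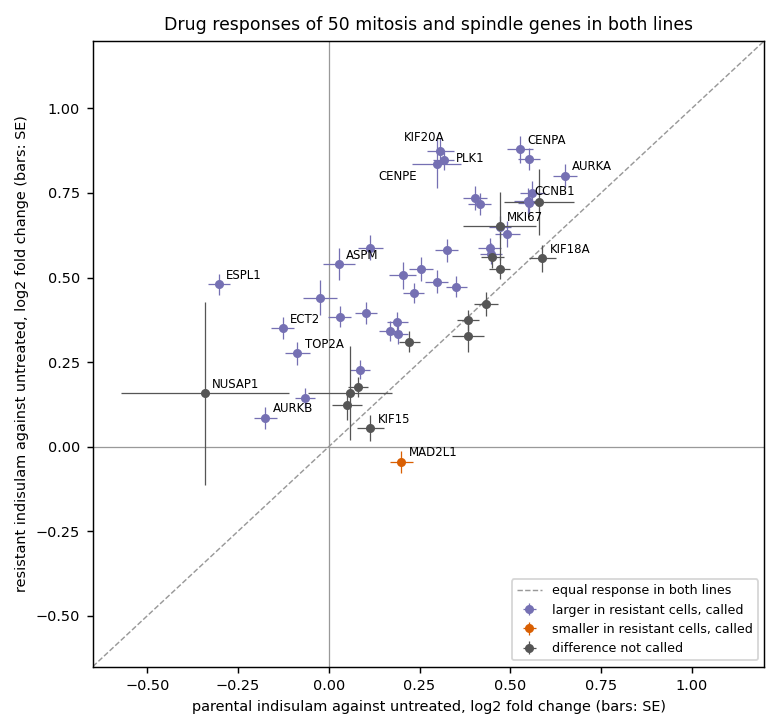
Each point is 1 of the 50 genes, with the log2 fold change on indisulam in parental cells on the horizontal axis, that in resistant cells on the vertical axis and SE bars, coloured by the test of the difference. Most points lie above the dashed line of equal response, ESPL1 lies far to the upper left and MAD2L1 below the line.

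Features that did not enter the choice of genes went only weakly with the size of change. Over the 50 genes, Spearman rho between the log2 fold change and the GC content, span, exon number or mean level was between -0.16 and 0.29 in every contrast, the highest for GC content in the contrast on the drug. Genes with a CHR word in the promoter had a median log2 fold change of 0.24 for the parental and 0.51 for the resistant response to the drug and of -0.57 between the lines off it (32 genes). The 11 with no such word had 0.31, 0.72 and -0.71, and the 7 with no listed promoter had 0.38, 0.42 and -0.41. TOP2A and ESPL1, which fell in parental cells, hold both words in the sequences printed above, as do CCNB2 and MKI67, which rose.

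Other genes of division were read in 10 companion lists of 126 genes, all tested. In all 126, 56 (44.4%) were higher and 37 (29.4%) lower after treatment of the parental line, beside 31.6% and 26.6% of all genes. For the resistant line on drug the counts were 39 (30.95%) and 55 (43.65%), beside 24.9% and 25.8%. Between the lines off the drug they were 36 (28.6%) and 56 (44.4%), beside 30.3% and 29.9%. On it they were 29 (23.0%) and 75 (59.5%), beside 34.6% and 34.9%. The difference of responses was higher for 29 (23.0%) and lower for 47 (37.3%), beside 22.7% and 27.5%. Scaling to library totals alone turned this last split to 48 and 29. Both directions were thus found in every contrast, and some shares lay near those of all genes. The 15 genes of replication licensing and S phase went another way. In parental cells 2 rose and 8 fell (median -0.12), in resistant cells 0 rose and 14 fell (-0.46), and off the drug 13 were higher and 0 lower in the resistant line (0.35). These counts of 0 were also 0 at an unadjusted p under 0.05 and with DESeq2. On the drug 5 were higher and 5 lower (0.037), or 9 and 2 with library totals alone. Their CPM summed to 3791 and 3814 in untreated and 3707 and 3722 in treated parental cells, and to 4627 and 4569 off and 3521 and 3471 on the drug in the resistant line. Thus the group with the lowest mitotic level had the highest S-phase level. MCM6, a subunit of the replicative helicase, was at 176 and 178 CPM in untreated parental cells, 165 and 166 after indisulam, 241 and 237 in resistant cells off the drug and 146 and 148 on it, and its fall in resistant cells on the drug was the deepest of the list (log2 fold change -0.70 ± 0.027 (SE), adjusted p = 8.83e-16). CCNE1, the cyclin of S-phase entry, was low but showed the largest rise of the list, in the resistant line off the drug (1.55 ± 0.062 (SE), adjusted p = 2.07e-16).

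**Figure D4:**
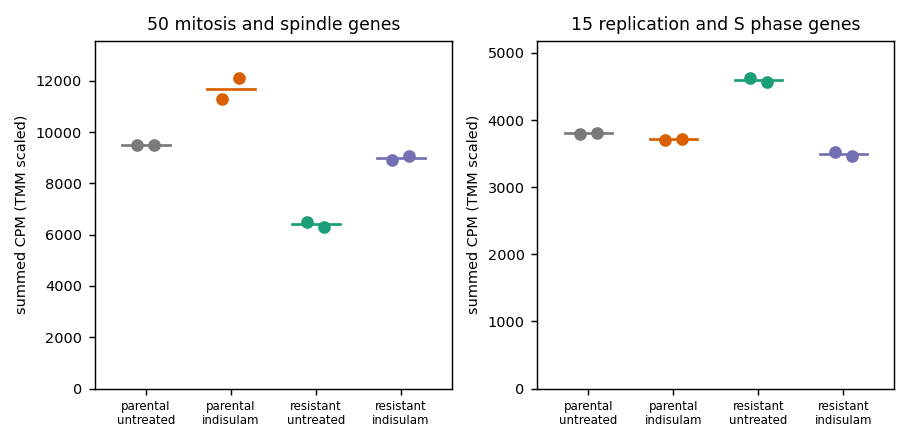
The summed CPM of the 50 mitosis and spindle genes (left) and of 15 replication and S phase genes (right) in each library as points, with group means as lines, from 0 on the vertical axis. Resistant untreated libraries are lowest on the left, at 6307 and 6490 CPM, and highest on the right, at 4569 and 4627 CPM.

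Closer to the spindle, cohesin had 11 of 13 genes higher and 0 lower in parental cells. All 13 were lower in the resistant line on the drug, beside 34.9% of all genes. These counts of 0 in the other direction held at an unadjusted p and with DESeq2. Its largest rise was NIPBL, the cohesin loader, in parental cells (0.44), and its largest fall WAPL, which releases cohesin, between the lines on the drug (-0.64). Of 8 condensin genes 2 rose and 5 fell in parental cells, and SMC2, a core subunit, was at -1.04 between the lines on the drug. The 14 inner kinetochore genes had 4 higher and 7 lower in parental cells, where 31.6% of all genes were higher and 26.6% lower, and CENPK was at -0.86 there and at 0.84 between the lines on the drug. A list of 14 genes was headed by the KNL1 and MIS12 complexes, SKA and RZZ, and also held KNSTRN and SPAG5. Of this list KNL1 rose most, in resistant cells (0.69), and KNSTRN fell most, off the drug (-0.71). The 17 genes of the anaphase-promoting complex had 7 higher and 4 lower in parental cells, with UBE2S at 0.54 in resistant cells on the drug and CDC26 at -1.10 between the lines on it.

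Regulators of the cycle moved as well. In the list of 12 DREAM and MuvB regulators, MYBL2, which encodes the activator B-MYB, was at 108 and 110.2 CPM without and 72.9 and 73.8 with the drug in the parental line, and 210.5 and 213 without and 218 and 212 with it in the resistant line. It fell in parental cells (log2 fold change -0.57 ± 0.030 (SE), adjusted p = 2.95e-13) and was higher in the resistant line off (0.95) and on the drug (1.55 ± 0.030 (SE), adjusted p = 1.72e-22). Among 9 genes of mitotic entry control, 8 rose and 1 fell in parental cells, beside 31.6% and 26.6% of all genes. Of these 9, CDC25B, a phosphatase that activates CDK1, rose in resistant cells (0.93 ± 0.029 (SE), adjusted p = 1.27e-17) and was lower in that line off the drug (-0.90). CEP55 of the centrosome list, which acts at abscission, rose by 0.72 in resistant cells and was at -1.10 off the drug. Of the 12 targets of p53 and p21, CDKN1A, the p21 inhibitor of cyclin-dependent kinases, was at 25.7 and 24 CPM in the parental line untreated and 27.4 and 26.7 treated, against 52.9 and 52.4 in the resistant line off drug and 64.1 and 61.6 kept on it. Of this list 4 genes were higher and 6 lower in the resistant line off the drug (median -0.21), beside 30.3% and 29.9% of all genes. CDKN1A was 2.12-fold higher in the resistant line off the drug (log2 fold change 1.08 ± 0.039 (SE), adjusted p = 2.2e-17). GDF15 rose most of this list, in resistant cells (1.81), at a low level of 0.472 to 1.87 CPM over all libraries, and BTG2 fell most, off the drug (-0.84).

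**Figure D5:**
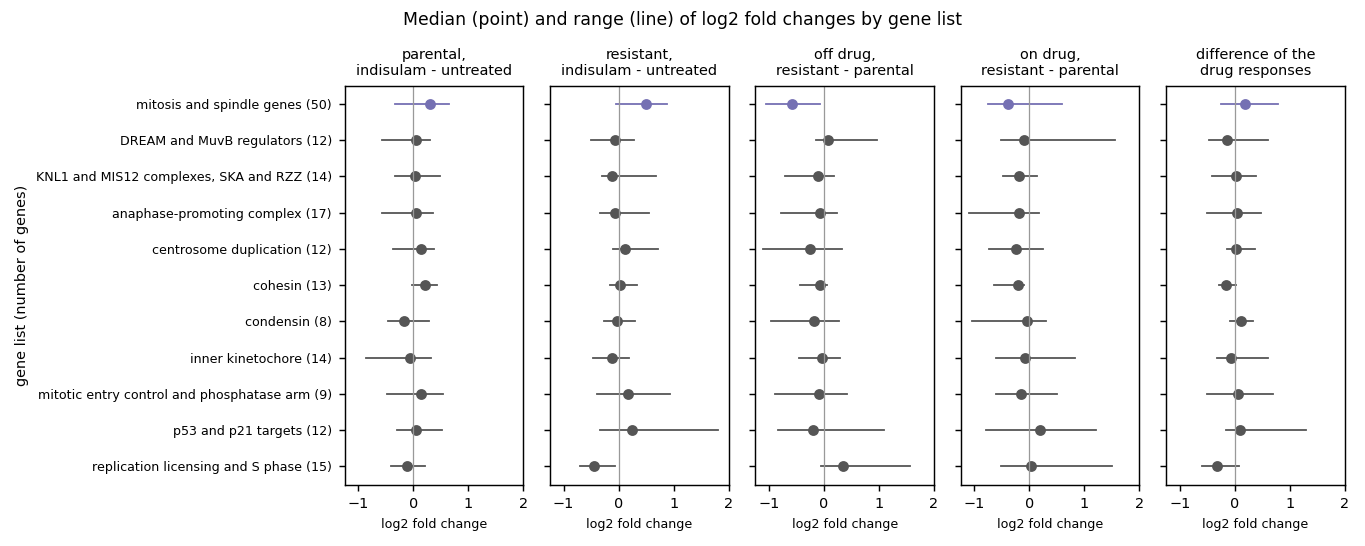
Points are the median and lines the full range of log2 fold changes of each gene list in the 5 contrasts, with the number of genes in brackets and the same horizontal scale in every panel. The median of the 50 genes (top, purple) lies to the right of 0 in both drug contrasts and to the left in both contrasts of resistant with parental cells. Their range crosses 0 in every contrast except that off the drug. Replication licensing and S phase genes (bottom) have the lowest median in resistant cells on the drug and the highest in the contrast off it.

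Some of the 50 genes are overlapped by other genes, and their counts are less certain. NUSAP1, a microtubule-bundling protein, had 258 reads in all libraries together, at 0.277 to 0.475 CPM, while OIP5-AS1, which overlaps it on the same strand, held 99.6% of the reads of the pair. PRC1, which cross-links the spindle midzone, had 1182 reads, and the annotated gene ENSG00000284946 on the same strand held 80.6% of the reads of that pair. That gene was at -0.29 on the drug in parental cells, 0.60 in resistant cells and -0.82 between the lines off the drug. Without PRC1 and NUSAP1, the r between the drug responses was 0.656 over 48 genes. Other genes that held over 20% of the reads of a pair were FAM53C for CDC25C (73.6%), SLC35F6 for CENPA (59.96%), BRD8 and CDC23 for KIF20A (both 45.0%), EXOSC9 for CCNA2 (23.4%) and PDZD11 for KIF4A (21.6%). The strand setting of the counting is not given in the sources used here. The part of such overlaps in the results was not tested. SLC35F6, beside CENPA, was at 0.039 between the lines off the drug and was not called. Beside KIF20A, BRD8 moved the same way, at -0.25 between the lines off the drug and 0.27 in resistant cells on it. CDC23, beside the same gene, went the other way in these contrasts, at 0.24 and -0.17.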

How the data were processed

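Per the labels, stranded polyA RNA libraries of the 8 samples were sequenced, and the study's methods and the submitters' processing notes name trimming, alignment to GRCh38 with HISAT2 2.2.1, Picard and HTSeq. The authors deposited raw counts of reads per Ensembl gene for each library. The annotation release and the strand setting of the counting are not given in the sources used here. The 9 lines that name no gene, among them ambiguous and duplicate reads, were left out. Reads in no gene were 4.72% to 6.34%. From these counts, edgeR 4.0.16 in R 4.3.3 was run with filterByExpr, TMM scaling (factors 0.962 to 1.03) and 1 robust quasi-likelihood fit of 4 group means over all 8 libraries, with 4 residual degrees of freedom. Genes with Benjamini-Hochberg adjusted p under 0.05 over 16661 genes were called. SE is the log2 fold change divided by the root of F. An exact permutation of 2 libraries against 2 cannot give p below 0.333, so none was used. Of the 60675 identifiers 60419 matched GENCODE 44, which gave names and lengths. Alternatives were DESeq2 1.42.0, other scalings, filters, thresholds and depths, a GC content and length offset, a replicate block and leaving out each library. The members and lists were chosen with earlier results of these data known. Named are all members by role, in each contrast the 5 largest called rises and falls, 11 core genes throughout, and from each companion list the called gene with the largest rise and fall over the contrasts. A marker and an overlapping gene are not reported here.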

Additional observations from a re-analysis of the deposited data

Results flagged for a closer look

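A direct test of the difference between the drug responses of the resistant and the parental line separated 36 of the 50 genes. By edgeR's quasi-likelihood test 35 were greater and 1 smaller in resistant cells, while 50.1% of all genes were called (22.7% higher and 27.5% lower). The 5 widest differences of log2 fold changes follow. ESPL1 stood at 0.78, KIF20A at 0.57, CENPE at 0.54, PLK1 at 0.53 and ASPM at 0.51. ESPL1, ECT2 (0.48), TOP2A (0.36) and AURKB (0.26) fell on the drug in parental cells and rose on it in resistant cells. With DESeq2 neither the fall of TOP2A (-0.080) nor the rise of AURKB (0.081) was called. They were -0.048 without parental indisulam replicate 1 and 0.050 without resistant indisulam replicate 1. CDC25C (0.46), BUB1 (0.35), BUB3 (0.21) and ASPM were not called in parental cells and rose in resistant ones, although BUB3 was called lower in parental cells in several alternatives, for example without parental indisulam replicate 2 (-0.11). Of the kinesins, KIF18B differed by 0.47, KIF2C by 0.30, KIF14 by 0.26 and both KIF4A and KIF11 by 0.14. In the kinetochore, CENPA differed by 0.35, SPC24 by 0.29, NUF2 by 0.27 and NDC80 by 0.18. For the switch, CCNB2 was at 0.30, NEK2 at 0.19, CCNB1 at 0.18 and CCNA2 at 0.12. PTTG1 was at 0.33, UBE2C at 0.22 and SGO2 at 0.17 among anaphase genes. BUB1B was at 0.19, INCENP at 0.18, AURKA at 0.15, TPX2 at 0.12 and FOXM1 at 0.14, and of the spindle proteins DLGAP5 was at 0.30, ANLN at 0.17 and HMMR at 0.14. MAD2L1, at -0.24, rose in parental cells and did not pass the test in resistant ones. The exposures of the lines differed, so line and schedule cannot be told apart.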

How the results depend on the processing

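The medians of the 50 genes kept their direction in every alternative run, from 0.21 to 0.32 in parental cells, 0.48 to 0.55 in resistant cells, -0.60 to -0.53 off the drug, -0.42 to -0.26 on it and 0.17 to 0.30 for the difference of responses. Library totals alone and no filter moved the median of all genes in that difference from 0.010 to 0.125 and to 0.154. Of the values of single genes, 4806 kept their direction and side of the threshold, 305 lost the call, 170 of them under glmTreat, 61 gained it and 23 reversed. Against a minimum of 0.5 log2 units (glmTreat), 2 of the 50 genes were higher and 0 lower in parental cells (companion genes 0 and 2). In resistant cells 14 were higher (7 and 3), and off the drug 24 were lower (4 and 11). On it 1 was higher and 8 lower (4 and 9), and the difference was higher for 1 and lower for 0 (2 and 1). The stricter minimum sets these lower counts, and the share of all genes passing it is not given here. By size alone, 0, 0, 2, 0 and 0 of the 50 passed 1 log2 unit in these 5 contrasts. Among all genes tested the shares were 7.68%, 6.06%, 11.9%, 15.5% and 11.6%, in the same order. With a GC content and length offset, alone or together with the replicate block, 7 of the 50 genes were lower in parental cells, 4 were higher on the drug, and the difference was lower for 0 and higher for 49 companion genes. The same offset reversed CDK1 to -0.01159 (-0.01153 with the block), BUB1 to -0.07064 (-0.07085), KIF15 to -0.01355 (-0.01391) and ASPM to -0.1633 (-0.1638) in parental cells. On the drug it reversed SPC25 to 0.09975 (0.1014), KIF15 to 0.03983 (0.0391), ECT2 to 0.1527 (0.1525) and TOP2A to 0.184 (0.1841). In the difference it reversed TTK to 0.1394 (0.1396), KIF15 to 0.1217 (0.1208) and KIF18A to 0.1321 (0.1313). Library totals alone gave a difference that was higher for 48 and lower for 29 companion genes and reversed BIRC5 to 0.1057. For the offset and the library totals the cause was not tested. Leaving out 1 library gave 34 to 38 genes higher and 3 to 5 lower in parental cells, 44 to 46 higher in resistant cells, 48 to 49 lower off the drug, 1 to 2 higher and 40 to 45 lower on it, and a difference higher for 31 to 41 and lower for 1. For companion genes these ranges were 43 to 49 and 32 to 41, 32 to 41 and 45 to 56, 32 to 38 and 47 to 59, 26 to 35 and 61 to 74, and 25 to 33 and 40 to 47. The count on the drug that fell to 1 did so without resistant indisulam replicate 1. The groups share replicate numbers, but same-numbered libraries did not deviate together (r from -0.192 to 0.137 over 6 pairs of groups). With the replicate block, 248 of 250 values of single genes kept their call and HMMR (0.14, difference) and TOP2A (-0.09, parental) lost it, which gave 39 and 3, 46 and 0, 0 and 48, 2 and 45, and 34 and 1 genes higher and lower. With the numbers of the resistant indisulam libraries crossed, an alternative chosen after seeing the data, 46 were higher and 0 lower in resistant cells. Depth limits chiefly NUSAP1 and PRC1, with 258 and 1182 reads in all.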
